A study of Mus musculus with 6 samples.

Results

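Pecam1, Cdh5, Tek, Tie1, Eng, Esam, Icam2, Cd34, Egfl7 and Emcn encode proteins of endothelial cell junctions and surfaces, or in the case of Egfl7 a protein that endothelial cells secrete. The 10 genes were chosen by name and read through the 15 probe sets that the array annotation assigns to 1 of them alone. They are 10 of 18193 genes measured. A gene's value was that of its brightest probe set, by the mean of all 6 arrays. Flk1-positive cells were isolated at day 4 from embryoid bodies, and the labels treat them as the culture equivalent of the haemangioblast, from which blood and endothelium both arise. The bodies were grown in suspension, without leukaemia inhibitory factor, from mouse embryonic stem (ES) cells of the genotypes Ldb1+/+ (wild type) and Ldb1-/- (knockout). Each genotype had 3 arrays, numbered 1 to 3 and titled as biological replicates. The labels do not say how the allele was made, whether a genotype was 1 clone, or what the shared numbers stand for. LDB1 is an adaptor protein that joins LIM-domain proteins and, in blood cells, GATA and TAL1 proteins.

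Endothelial cells line vessels and hold to each other through junctions built around VE-cadherin, the product of Cdh5. PECAM-1, ESAM and ICAM-2 are immunoglobulin-type adhesion molecules at the same contacts. The angiopoietin receptor TIE2, the product of Tek, and its partner TIE1 govern how stable the contacts are, and endoglin (Eng) is a co-receptor for ligands of the TGF-beta family. These genes switch on as Flk1-positive mesoderm turns into endothelium, but several of them are not confined to it. Pecam1 is also made by ES cells, platelets and leukocytes, and Cd34 by blood progenitors.

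The 10 genes did not differ in the same way across the 3 replicate numbers. The knockout arrays of numbers 1 and 2 read higher than their wild-type counterparts for most of the 10 genes. Cdh5 and Tek were more than 2-fold higher in both. The knockout array of number 3 read lower than its counterpart for all 10, by each gene's brightest probe set, though a second Eng probe set read higher there. Over all 6 arrays 0 of the 10 genes passed the test in either direction.

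Facts on the arrays bear on all that follows. Values were log2 levels, on which a difference of 1 is a doubling. Array medians lay between 5.71 and 5.77, and lower quartiles between 4.22 and 4.37. The arrays of number 3 stood apart in both genotypes. The 5′ control of Gapdh read 12.93 on both of them against 10.19 to 11.11 elsewhere. That of Actb read 12.97 and 13.22 against 11.19 to 11.49. The 3′ controls of both genes lay between 14.20 and 14.51 on all 6 arrays. The 5′ controls thus lay further below the 3′ controls on the arrays of numbers 1 and 2. They do not mark number 3 as the poorer pair. The 18S ribosomal RNA control read 11.62 in knockout replicate 3, against 9.52 to 10.74 on the other 5 arrays, wild-type replicate 3 being at 10.74. Wild-type replicate 3 had the lowest upper quartile, 7.92 against 8.15 to 8.28. Ldb1 itself read 7.78, 7.31 and 8.31 in wild-type and 7.25, 6.60 and 8.25 in knockout replicates 1, 2 and 3. It differed by −0.53, −0.71 and −0.06 within numbers 1, 2 and 3, the smallest being in number 3, where all 10 genes were lower. In both genotypes Ldb1 was highest on the array of number 3, and knockout replicate 3 read above wild-type replicates 1 and 2. Whether the Ldb1 values are linked to those of the 10 genes was not tested. The mean difference of −0.43 (SE 0.45) was not called by limma (adjusted p = 1.00). A probe set outside the deleted part checks nothing, and where this one lies relative to the deletion is not given in the sources used here, so genotypes are those of the labels. Results are therefore given with all arrays and without those of number 3, neither being taken as the sounder.

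The cells were checked against endothelial markers. Kdr, the gene of the Flk1 receptor used for isolation, stood at 11.70 ± 0.44 (SD, n = 3) in the knockout and 12.12 ± 0.33 in the wild-type cells. Etv2, a transcription factor that starts the endothelial and blood programme, stood at 12.11 ± 0.70 and 11.66 ± 0.06. Its knockout arrays lay on both sides of the wild-type ones. Of the other markers listed, Fli1, Sox17, Sox18 and Sox7 lay above the median level of all values, and Erg, Cldn5 and Cd93 below it. Several defining surface genes read low. Cd34 lay between the 12.3 and 24.1 percentiles of all probe sets over the 6 arrays, Emcn between 10.7 and 18.7, Tie1 between 24.3 and 45.6 and Pecam1 between 26.9 and 42.5. Such positions also depend on each probe set's own efficiency, and no detection calls were used here. For Cd34 and Emcn, every array's value lay below its lower quartile, a range in which signal and background cannot be told apart here. Egfl7, Eng and Esam stood at the 61.8 percentile or above on all arrays.

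**Figure D1:**
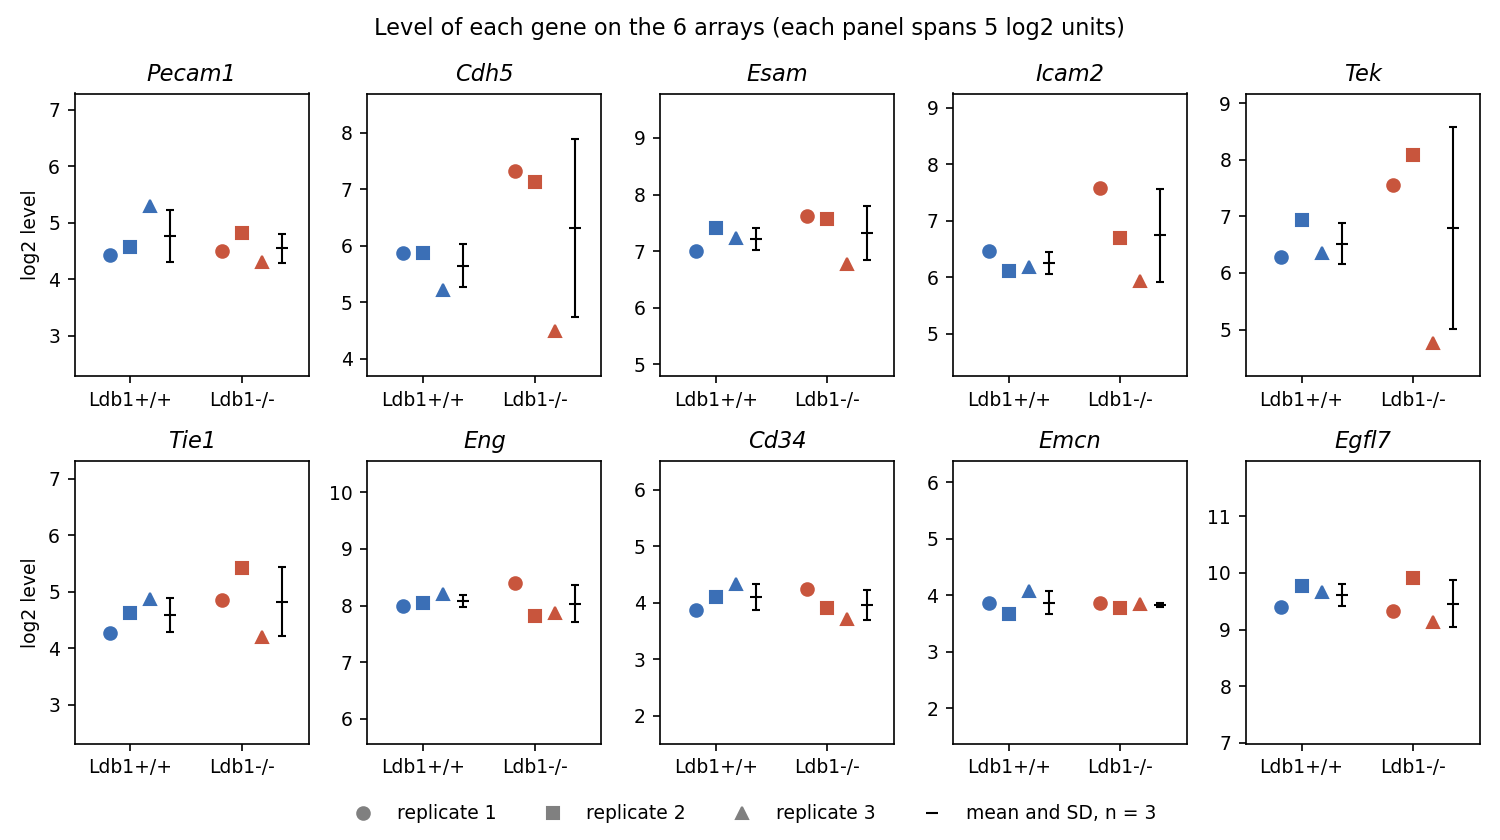
Level of each of the 10 genes on the 6 arrays, on the log2 scale, with wild-type arrays in blue and knockout arrays in red, the marker shape giving the replicate number and the bar the mean and SD (n = 3). In Cdh5 and Tek, knockout replicates 1 and 2 lie above all 3 wild-type arrays and knockout replicate 3 below them.

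Among the junction genes Cdh5 varied most. It read 5.86, 5.87 and 5.21 in wild-type replicates 1, 2 and 3 and 7.32, 7.13 and 4.49 in the knockout replicates. Both of the first knockout arrays were above every wild-type array and the third was below every wild-type array, so the groups overlapped. Within numbers 1 and 2 the knockout array was 2.74-fold and 2.40-fold higher, and within number 3 it was 1.65-fold lower. The mean difference was 0.66 (SE 0.73, 95% interval −1.07 to 2.40; limma, adjusted p = 1.00).

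Icam2, whose product binds the leukocyte integrin LFA-1 and sits at endothelial junctions, followed a like course. It read 6.46, 6.10 and 6.18 in wild-type and 7.59, 6.69 and 5.94 in knockout replicates 1, 2 and 3. Again the first 2 knockout arrays were the highest of the 6 and the third the lowest. The difference was 0.49 (SE 0.39, 95% interval −0.44 to 1.42; limma, adjusted p = 1.00).

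Esam, of the tight junction adhesion molecules, moved within a narrower range. Its wild-type arrays read 7.01, 7.40 and 7.22 and its knockout arrays 7.62, 7.57 and 6.77, again with the third knockout array lowest. The difference was 0.11 (SE 0.25, 95% interval −0.49 to 0.72; limma, adjusted p = 1.00).

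Pecam1 read 4.44, 4.57 and 5.29 in wild-type and 4.50, 4.83 and 4.31 in knockout replicates 1, 2 and 3. Its highest value was that of wild-type replicate 3, and without that array the difference of −0.22 (SE 0.26; limma, adjusted p = 1.00) turned to 0.05. In numbers 1 and 2 the knockout array was higher by 0.07 and 0.26, and in number 3 lower by 0.98 on the log2 scale.

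Of the receptor genes, Tek had the widest spread of all 10 among knockout arrays. It read 6.28, 6.94 and 6.35 in wild-type and 7.55, 8.09 and 4.76 in knockout replicates 1, 2 and 3. The knockout array was 2.41-fold and 2.23-fold higher in numbers 1 and 2 and 3.00-fold lower in number 3. The SD was 1.79 among knockout and 0.36 among wild-type arrays, and the difference of 0.28 had a 95% interval from −1.66 to 2.22 (limma, adjusted p = 1.00). That interval holds both a 2-fold fall and a 4-fold rise, so the 6 arrays set no useful bound on Tek.

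Tie1, a relative of Tek that has no angiopoietin of its own, read 4.27, 4.63 and 4.87 in wild-type and 4.86, 5.41 and 4.20 in knockout replicates 1, 2 and 3. Its knockout arrays had the order of those of Tek, number 2 highest and number 3 lowest, as did those of Pecam1 and Egfl7, while the wild-type orders of Tek and Tie1 differed. Its difference was 0.23 (SE 0.32, 95% interval −0.53 to 1.00; limma, adjusted p = 1.00).

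The sequences around the starts of Tek and Tie1 are shown as those of the related TIE receptors, 250 bases before and 50 after, from RefSeq on GRCm38.p6. The choice was made with their values known. Capitals mark the core of ETS factor sites, GGAA or its reverse complement TTCC. Tek lies on the plus strand at chr4:94739039-94739338 and Tie1 on the minus strand at chr4:118489800-118490099.
Tek: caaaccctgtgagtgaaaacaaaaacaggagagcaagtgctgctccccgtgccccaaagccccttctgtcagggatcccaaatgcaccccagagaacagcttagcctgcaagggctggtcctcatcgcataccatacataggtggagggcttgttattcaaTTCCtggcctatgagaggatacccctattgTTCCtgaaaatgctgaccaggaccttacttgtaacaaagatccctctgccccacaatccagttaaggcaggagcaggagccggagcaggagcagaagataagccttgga
Tie1: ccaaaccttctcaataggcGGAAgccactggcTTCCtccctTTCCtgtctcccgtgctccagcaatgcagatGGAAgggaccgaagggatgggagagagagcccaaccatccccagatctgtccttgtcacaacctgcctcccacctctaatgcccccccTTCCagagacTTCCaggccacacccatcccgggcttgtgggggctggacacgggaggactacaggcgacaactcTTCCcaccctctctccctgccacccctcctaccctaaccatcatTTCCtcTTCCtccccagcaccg
The Tek window held 2 matches to GGAA and that of Tie1 9, against a median of 3 over 32851 promoter windows of the same length, of which 96.0% held at least 1. Among the other members with a window, Eng held 4, Cd34 5, Emcn 6 and the 3 windows of Egfl7 5, 4 and 1. Both strands were searched. The longer ETS form CGGAAG was found once in Tie1 and not in Tek, and in 16.9% of all windows. The GATA motif AGATAA was found once in Tek and not in Tie1, and in 11.2% of all windows. The E-box CANNTG, bound by TAL1-type factors, was found in Tek at 2 places and in Tie1 at 1, and in 72.3% of all windows. CGGAAG contains GGAA, so those matches overlap. The matches describe letters in these windows, and binding was not measured.

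Eng differed from both receptors in being steady. Its brightest probe set read 7.99, 8.05 and 8.20 in wild-type and 8.41, 7.82 and 7.87 in knockout replicates 1, 2 and 3. The difference was −0.05 (SE 0.19, 95% interval −0.50 to 0.40; limma, adjusted p = 1.00), so that an average change of more than 1.5-fold in either direction lay outside the interval for this probe set. The second Eng probe set varied more. It read 7.71, 7.51 and 5.79 in wild-type and 8.58, 7.47 and 6.89 in knockout replicates 1, 2 and 3, a difference of 0.64 (SE 0.62; limma, adjusted p = 1.00). In number 3 the probe sets pointed opposite ways, −0.33 for the brightest and 1.09 for the second. The second probe set was lowest on both arrays of number 3, the arrays whose 5′ controls stood apart, and the part of that in the result was not tested.

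The sialomucin genes Cd34 and Emcn encode heavily glycosylated surface proteins. Cd34 read 3.87, 4.09 and 4.32 in wild-type and 4.24, 3.91 and 3.71 in knockout replicates 1, 2 and 3, a difference of −0.14 (SE 0.19; limma, adjusted p = 1.00). Emcn read 3.86, 3.68 and 4.08 in wild-type and 3.86, 3.78 and 3.84 in knockout replicates 1, 2 and 3, a difference of −0.04 (SE 0.14; limma, adjusted p = 1.00). Both sets of arrays overlapped, at levels where the arrays may not resolve a change.

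Egfl7, whose product is a secreted factor of developing vessels, was read by 4 probe sets. The brightest read 9.40, 9.77 and 9.66 in wild-type and 9.32, 9.92 and 9.13 in knockout replicates 1, 2 and 3, with the third knockout array lowest. The difference was −0.16 (SE 0.23, 95% interval −0.70 to 0.39; limma, adjusted p = 1.00). The other 3 probe sets differed by −0.19, −0.06 and 0.08, and all 4 were lower in the knockout array of number 3, by 0.53, 0.73, 0.59 and 0.38 on the log2 scale. Cdh5 had a second probe set too, which stayed between 4.01 and 4.39 on all arrays, near their lower quartiles, and so did not vary with the brightest.

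**Figure D2:**
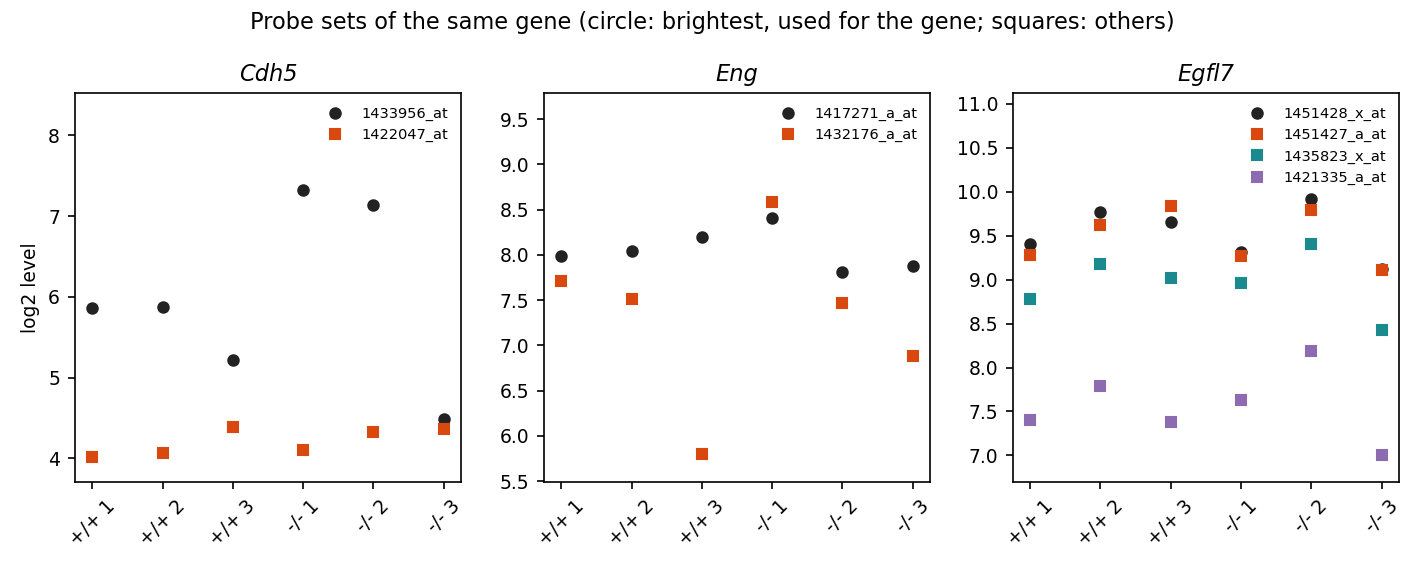
Log2 levels of every probe set of Cdh5, Eng and Egfl7, the 3 genes with more than 1, on the wild-type (+/+) and knockout (-/-) arrays, circles marking the probe set used for the gene. The 4 Egfl7 probe sets share their high and low knockout arrays, while those of Cdh5 and Eng part ways, as in wild-type replicate 3 for Eng, where the second reads 5.79 against 8.20.

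Taking the replicate numbers as pairs showed how the 10 genes split. In number 1 the knockout array was higher for 9 of the 10 genes, with Egfl7 the exception at −0.08, and the median difference was 0.50. Over all genes 49.7% were higher there. In number 2 it was higher for 8 of the 10, with Eng and Cd34 lower, and the median was 0.22, where 50.7% of all genes were higher. In number 3 it was lower for 10 of 10, with a median of −0.57, where 48% of all genes were higher. That count rests on each gene's brightest probe set, since the second Eng probe set was higher in number 3, by 1.09 on the log2 scale. In the deposited values 7121 of the 11212 genes above the median level were higher there, so genes below that level were mostly lower. For Pecam1, Tie1, Cd34 and Emcn, which lie below that level, a lower value in number 3 was thus common. The median over all genes was −0.0010, 0.0036 and −0.02 in numbers 1, 2 and 3, and that of the 11212 genes above the median level −0.05, −0.03 and 0.12. Repeated quantile normalisation turned the last of these to −0.06, so whether bright genes in general lay opposite to the 10 in number 3 depends on the scaling. The median of the 10 in number 3 was −0.62 under it and −0.54 with array medians subtracted, 10 of 10 being lower under both, and in number 1 both scalings left 8 of 10 higher.

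A pattern of higher in numbers 1 and 2 and lower in number 3 was shown by 7 of the 10 genes. They were Pecam1, Cdh5, Esam, Icam2, Tek, Tie1 and Emcn. The pattern was shown by 16.9% of all genes but by 7.91% of those above the median level, so it was commoner among dimmer genes. Pecam1, Tie1 and Emcn lie below that level. In Emcn the excess in number 1 was 0.0014. Knockout replicate 3 was the lowest of the 6 arrays for 8 of the 10, all but Eng and Emcn, against 23.7% of all genes. The SD among knockout arrays was larger than that among wild-type arrays for 8 of the 10, all but Pecam1 and Emcn, against 44.8% of all genes. The difference between number 3 and the others was not tested, since that number was singled out with its values known. In none of the 10 genes did the knockout arrays lie wholly above or below the wild-type arrays, which they did in 7.92% of all genes.

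**Figure D3:**
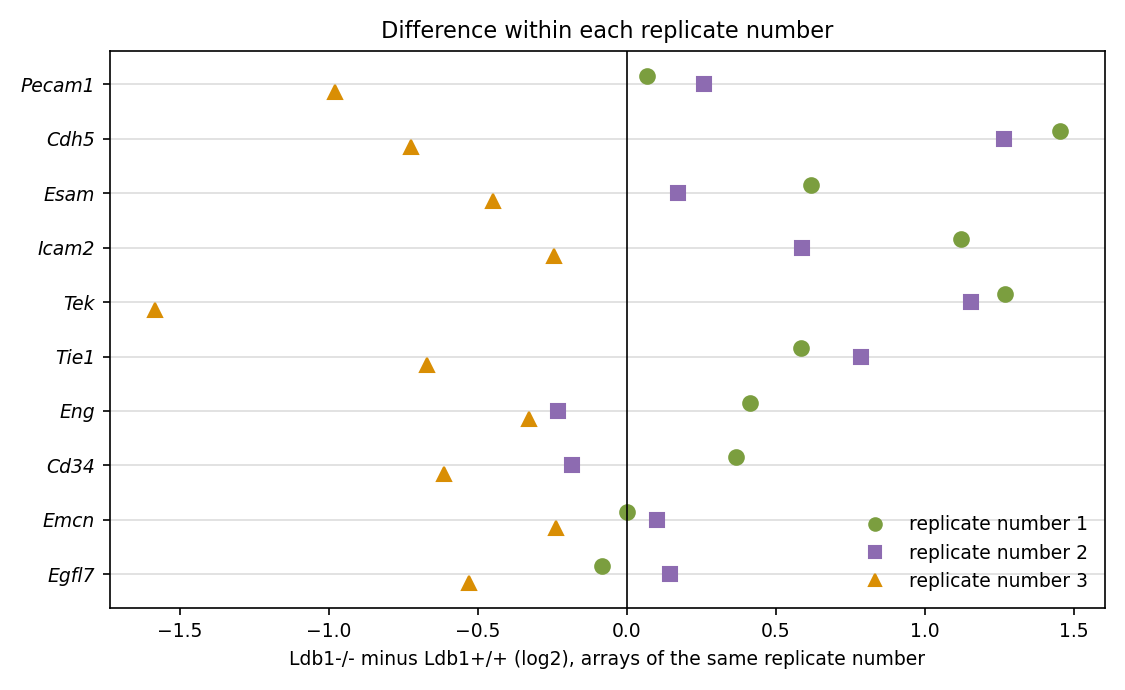
Knockout minus wild-type log2 level between arrays of the same replicate number for each of the 10 genes. All 10 values of number 3 lie below 0, from −1.58 in Tek to −0.24 in Emcn, while those of numbers 1 and 2 lie mostly above it and reach 1.45 and 1.27 in Cdh5.

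Counts across all genes give the scale for the tests. With limma over 6 arrays 0.022% of genes passed as lower and 0% as higher, 0 of the 10 passed in either direction, and 0 of the 10 had an unadjusted p under 0.05, which 3.85% of all genes had. Over the 10 genes the median difference was 0.03, with 5 lower and 5 higher, beside −0.01 over all genes. With the replicate number as a block 0.231% of genes passed as lower and 0.11% as higher. Of the 10 genes 0 passed, with adjusted p from 0.681 in Icam2 to 0.980 in Eng, and 0 had an unadjusted p under 0.05, which 8.94% of all genes had.

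Without both arrays of number 3, the blocked fit called 4 of the 10 genes higher in knockout cells. Cdh5 rose by 1.36 (SE 0.13; limma, adjusted p = 0.000104) and Tek by 1.21 (SE 0.13; adjusted p = 0.000192). Icam2 rose by 0.86 (SE 0.15; adjusted p = 0.00594) and Tie1 by 0.69 (SE 0.13; adjusted p = 0.0108). The other 6 did not pass, with differences from 0.03 in Egfl7 to 0.39 in Esam. In this fit 1.34% of all genes were called higher and 3.14% lower. It rests on 4 arrays with 1 residual degree of freedom per gene, and its variances come largely from the prior that limma shares across genes. The same 4 arrays without the block gave 0 calls among the 10, with an adjusted p of 0.315 for Cdh5 and 0.847 for Tek, so the calls depend on reading the numbers as pairs. Leaving out knockout replicate 3 alone gave differences of 1.58 for Cdh5, 1.30 for Tek, 0.89 for Icam2 and 0.55 for Tie1, with 0 calls among the 10 and a lowest adjusted p of 0.551. With number 1 or number 2 left out instead, the blocked Tek difference was −0.21 or −0.16, and 0 of the 10 passed.

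**Figure D4:**
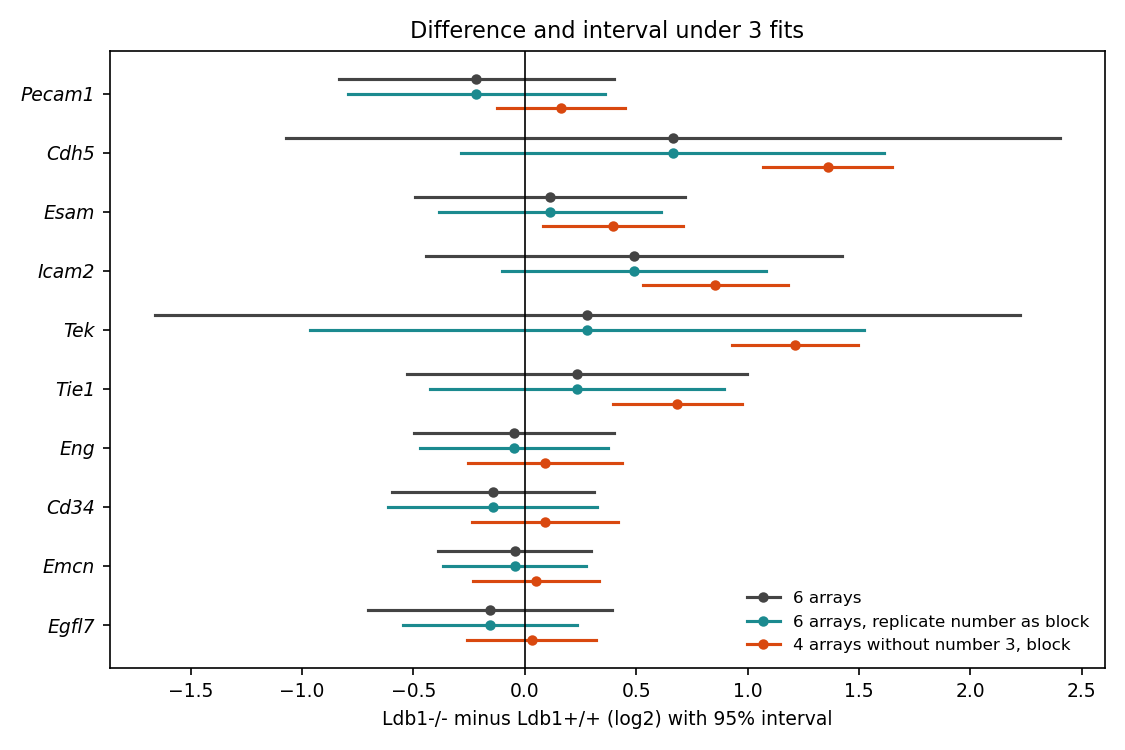
Knockout minus wild-type log2 difference with its 95% interval for each gene, from 6 arrays (grey), from 6 arrays with the replicate number as a block (teal), and from the 4 arrays of numbers 1 and 2 with the block (orange). The grey and teal intervals of all 10 genes include 0, and the orange intervals of Cdh5, Icam2, Tek, Tie1 and Esam lie above it, Esam not passing after adjustment over all genes (adjusted p = 0.18).

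In these knockout arrays 29.0% of the genes of chromosome 8 and 80.4% of those of chromosome 11 read lower, against 53.7% of all genes, and 3 of the 10 genes lie there. Cdh5 is on chromosome 8, where the genes above the median level had medians of 0.31, 0.09 and 0.40 in numbers 1, 2 and 3. Its own differences, 1.45, 1.27 and −0.72, were larger in the first 2 and opposite in the third. Icam2 is on chromosome 11, where the medians were −0.22, −0.34 and −0.14, and it read 1.12 and 0.59 higher in numbers 1 and 2, against the chromosome's direction, and 0.24 lower on the log2 scale in number 3. Pecam1, also on chromosome 11, was at 0.07, 0.26 and −0.98. The other 7 lie on chromosomes 1, 2, 3, 4 and 9, whose medians over all genes and all 6 arrays were between −0.02 and −0.0036. For their genes above the median level, the medians were between −0.08 and −0.03 in number 1. They were between −0.03 and −0.02 in number 2 and between 0.13 and 0.17 in number 3.

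A list of 40 genes that work with the 10, such as angiopoietins, endoglin's partner receptors, catenins, other junction proteins and further endothelial surface genes, did not pass the test either. All 40 were measured, 21 lower and 19 higher, with a median of −0.02. With limma 0 of 40 passed in either fit, and 2 had an unadjusted p under 0.05 without the block and 6 with it, beside 3.85% and 8.94% of all genes. By number the medians were 0.07, 0.04 and −0.29. In number 3, 12 of 40 were higher, where 48% of all genes were. The 14 junction components stood at a median of −0.03 in that number. The 4 genes for ligands and phosphatase of the TIE receptors stood at −0.32, and the 5 for ligands and receptors of endoglin at −0.36. The 17 other endothelial genes stood at −0.33 there, and at 0.28 and 0.05 in numbers 1 and 2. Most of the 14 lay above the median level of all values, while Angpt1, Angpt2, Angpt4 and most of the 17 lay below it. Genes below that level were mostly lower in number 3, and the part of level in these values was not tested. Knockout replicate 3 was the lowest array for 22 of 40, against 23.7% of all genes. Higher in numbers 1 and 2 and lower in number 3 were 11 of 40, against 16.9% of all genes.

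Among these, the angiopoietin genes Angpt1 and Angpt2, whose products bind TIE2, stood at 4.50 ± 0.37 and 4.75 ± 0.12 (SD, n = 3) in wild-type and at 4.24 ± 0.09 and 4.98 ± 0.12 in knockout arrays. Acvrl1, the endothelial type I receptor that works with endoglin, read 4.79 ± 0.14 and 4.84 ± 0.30. All 3 lay below the arrays' medians. Ptprb, the phosphatase of TIE2 and VE-cadherin, read 6.66 ± 0.47 and 6.61 ± 0.51. Ctnnb1, the beta-catenin that ties cadherins to the cell's skeleton, read 13.99 ± 0.11 and 13.93 ± 0.09, a difference of −0.06.

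Of the 40 partner genes, 8 were lower and 6 higher in all 3 numbers, beside 2717 and 2452 of all 18193 genes. Partner genes were named for size from these alone, so their like sign is the rule of choice. The largest differences upward were in F11r, a junctional adhesion molecule also found in epithelia, at 0.58 (SE 0.19), Icam1, an inducible leukocyte ligand, at 0.52 (SE 0.35), and Tgfbr2, a TGF-beta receptor, at 0.36 (SE 0.49). Those downward were in Podxl, a sialomucin of the CD34 family, at −0.78 (SE 0.40), Calcrl, the adrenomedullin receptor, at −0.58 (SE 0.40), and Cgnl1, a junction plaque protein, at −0.51 (SE 0.25). None of these 6 passed, with limma adjusted p of 1.00 without the block and 0.292 to 0.642 with it. F11r read 9.37, 9.61 and 9.37 in wild-type and 10.30, 9.66 and 10.11 in knockout replicates 1, 2 and 3, with every knockout array above every wild-type array. Podxl read 11.85, 11.12 and 10.90 in wild-type and 10.88, 10.96 and 9.69 in knockout replicates 1, 2 and 3, and with number 2 left out it fell by 1.09 (SE 0.23; blocked limma, adjusted p = 0.0139). S1pr1, a receptor of the vessel wall that fell outside the naming rule and was chosen after its values were seen, was the partner called without number 3, at 0.67 (SE 0.17; blocked limma, adjusted p = 0.0390).

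Markers of other cells moved with the arrays as well. A mean over 6 pluripotency genes was 7.98 in knockout replicate 3 and between 7.28 and 7.83 on the other arrays, and their median difference in number 3 was 1.11 against 0.02 and 0.06 in numbers 1 and 2. In that number 4 of the 6 were higher. Pou5f1 and Nanog, defining genes of ES cells, were higher by 1.55 and 1.16, and Esrrb and Klf4 were lower. A mean over 9 endothelial and haemangioblast genes, of which Cldn5 and Cd93 are also among the partners, was 6.93 in knockout replicate 3 and between 7.67 and 8.16 elsewhere. Of these 9 genes 7 were lower in number 3, with Fli1, an ETS factor of blood and endothelium, at −2.09, and Sox7, a SOX factor of early endothelium, at −1.49, while Etv2 was at 0.85. The medians of the 9 were 0.03, −0.21 and −0.71 in numbers 1, 2 and 3. Of the 9 genes 0 were higher in numbers 1 and 2 and lower in number 3. Of the 10 junction and surface genes 7 were, and of all genes 16.9%. Sox7 and Cldn5 missed that pattern narrowly. Sox7 was at 0.59, −0.06 and −1.49 and Cldn5 at 0.55, −0.02 and −0.42 in numbers 1, 2 and 3. Kdr, Fli1 and Sox17 were lower in all 3 numbers. The part of these marker changes in the values of the 10 genes was not tested. In bulk RNA, fewer cells of a type and less RNA per cell cannot be told apart.

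Blood markers took another course than the 10 genes. Their median over 7 measured genes was −1.15, −0.76 and −0.78 in numbers 1, 2 and 3, lower each time, also in numbers 1 and 2, where Tek and Cdh5 read higher. Of the 7, limma called 1 in the unblocked fit and 3 in the blocked one, all of them lower. The embryonic globin gene Hbb-bh1 fell by 3.89 on the log2 scale (SE 0.23; limma, adjusted p = 0.00494). Hba-x, another embryonic globin gene, was at −0.24 and was not called in either fit, at a level below the median of all values. Gata1, an erythroid transcription factor, was at −1.31 (adjusted p = 0.0542, and 0.0194 with the block), and Myb, a transcription factor of blood progenitors, at −2.92 (adjusted p = 0.322, and 0.0238 with the block). Itga2b, the gene of CD41 on early blood cells, was at −0.90 (adjusted p = 0.410, and 0.0849 with the block). Ptprc and Spi1, a myeloid transcription factor, were not lower in numbers 1 and 2. The pan-leukocyte gene Ptprc read 3.96 and 4.06 on average in wild-type and knockout arrays, below the lower quartiles. Cardiac mesoderm markers had medians of −0.56, −0.41 and 0.09 in numbers 1, 2 and 3, with 4 of 7 higher in number 3. Of the 7, 0 were called without the block and 1 with it. The 1 called was Hand2, a transcription factor of the early heart, at −2.70 (limma, adjusted p = 0.174, and 0.00103 with the block). Smooth muscle markers had medians of 0.41, 0.31 and 0.65, with 0 of 4 called in either fit. In the contractile genes Acta2 and Tagln, both at 0.76, every knockout array lay above every wild-type array. In Cnn1 at 0.29 and Myh11 at −0.05 the groups overlapped. Groups lay apart, in either direction, in 7.92% of all genes. The medians were −0.38, −0.24 and 0.10 for 4 paraxial mesoderm markers and −0.04, 0.05 and −0.35 for 5 of visceral endoderm, with 0 called in either fit. The part of these lists in the values of the 10 genes was not tested.

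**Figure D5:**
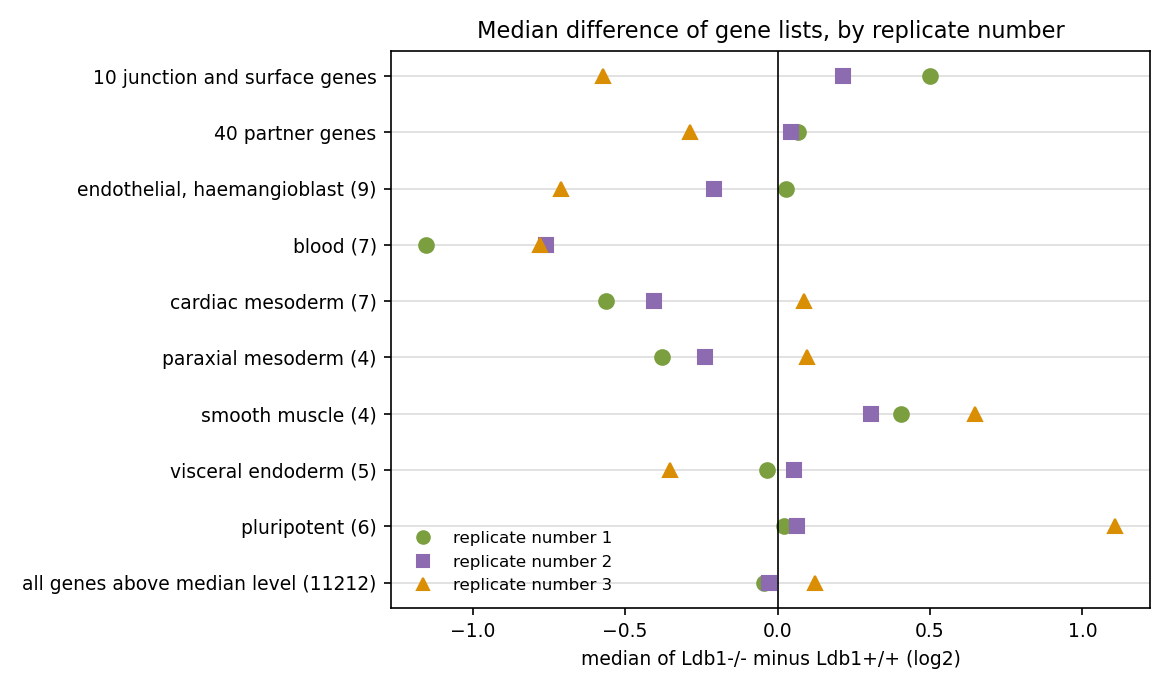
Median knockout minus wild-type log2 difference of each gene list by replicate number, with the number of genes in brackets. The 10 junction and surface genes lie at 0.50, 0.22 and −0.57 in numbers 1, 2 and 3, the blood markers lie below 0 in all 3, and the pluripotency markers reach 1.11 in number 3.

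Genes whose values ran most like the 10 over the 6 arrays were sought among 11206 other genes above the median level, by Pearson correlation with the mean of the 10 genes' centred values. That mean was 0.40 and 0.39 in knockout replicates 1 and 2, −0.62 in knockout replicate 3 and between −0.18 and 0.02 in the wild-type arrays. The values were centred but not scaled, so genes of wide range weigh most in it. Knockout ranges were 3.33 in Tek and 2.83 in Cdh5, against 0.08 in Emcn, so likeness to that mean is largely likeness to Tek and Cdh5. The closest were Cdkn2c at 0.992, Hrk at 0.957, Inka2 at 0.956, Shisa7 at 0.952 and Lin7b at 0.950. With 6 arrays and so many candidates such values describe likeness on these arrays only. The 5 genes varied far less than Tek, with knockout SDs between 0.15 and 0.34. Within the 10, correlation with the mean of the other 9, likewise not scaled, was 0.957 for Esam and 0.937 for Tek. For Cdh5, Tie1 and Icam2 it was 0.855, 0.821 and 0.678. It was 0.549 for Cd34, 0.538 for Egfl7, 0.366 for Eng, 0.317 for Pecam1 and −0.10 for Emcn.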

How the data were processed

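Flk1-positive day 4 cells were measured on 6 Affymetrix Mouse Genome 430 2.0 arrays, 3 per genotype. The deposited values were log2 levels per probe set. The submitters' processing notes name RMA and affy, without versions; other steps are not given in the sources used here. RMA as usually run evens out arrays and summarises probes, so small real shifts of a whole array are lost. Of 45101 probe sets, 64 were controls, 932 named several genes and 9160 none, and 34945 named 1 gene. The brightest of each gene's probe sets was kept, for 18193 genes, without a filter on level.

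The genotype contrast was fitted in R 4.3.3 by limma 3.58.1 (lmFit, eBayes), with p-values adjusted by Benjamini-Hochberg over all genes and a threshold of 0.05. Another fit added replicate number as a block. Deviations from the genotype means correlated at 0.699, 0.354 and 0.448 between arrays of the same number, above the limit of 0.1, so the numbers were taken as pairs; this comes from the data, since the labels do not explain them. Precision is limited by how few arrays there are. Checks on simulated data preceded the fits. All 10 genes are named; of the partner genes, those past the threshold in either fit, or failing that the 3 largest differences in each direction of like sign in all 3 numbers, with others named for their role and chosen after their values were seen. The cell type markers named are from lists for endothelial, blood, cardiac, paraxial, smooth muscle, visceral endoderm and pluripotent cells. Alternatives were the block, arrays or numbers left out, a filter on level, further normalisation, other choices of probe set, trended robust variance and array weights. The members, lists and alternatives were chosen with earlier results of these data known. Promoter windows were searched with pandas 2.3.3 in Python 3.11.15 (6 of the 10 genes had one) and figures drawn with matplotlib 3.10.9.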

Additional observations from a re-analysis of the deposited data

How the results depend on the processing

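Over 18 alternatives Cdh5 and Icam2 kept their direction in all that were run, and the other 8 genes turned in at least 1. Some alternatives, such as the block over 6 arrays and the trended robust variance, cannot change a difference. Without knockout replicate 1 the difference was 0.16 for Cdh5 and 0.065 for Icam2. Within number 3 both genes were lower, by 0.72 and 0.24 on the log2 scale. Dim genes (Pecam1, Tie1, Cd34 and Emcn) could not be tested with a filter on level, and the arrays' signal limits what can be said of them. The replicate block changed no call among the 10 genes or the partners; it moved the calls over all genes from 4 lower and 0 higher to 42 lower and 20 higher. With the block and without number 1 these were 31 and 19, without number 2 131 and 136, and without number 3 572 and 243. Array weights gave 52 lower and 16 higher, and repeated quantile normalisation 5 lower and 1 higher. Among the 10 genes the calls were 4 higher without number 3 (blocked) and 0 in every other setting; among partners, with the block, Podxl was lower without number 2 and S1pr1 higher without number 3. The median of the 10 was 0.28 without number 3, with or without the block, and −0.17 and −0.08 with the block without number 1 or 2.

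Directions turned as follows. Blocked, without number 1, Esam stood at −0.14 and Tek at −0.21. Blocked, without number 2, Tek stood at −0.16, Tie1 at −0.042 and Eng at 0.043. Without number 3, with the block or, as chosen after seeing the data, without it, Pecam1 stood at 0.16, Eng at 0.091, Cd34 at 0.091, Emcn at 0.052 and Egfl7 at 0.031. The mean of its probe sets gave Eng 0.30. Array weights gave Pecam1 0.077 and Emcn 0.091. With each array left out in turn, calls over all genes ranged from 1 to 6 lower with 0 higher. The differences ranged from −0.38 to 0.045 for Pecam1, −0.037 to 0.39 for Esam, −0.37 to 1.30 for Tek, −0.062 to 0.55 for Tie1, −0.24 to 0.060 for Eng, −0.14 to 0.060 for Emcn and −0.39 to 0.0085 for Egfl7. The cause was not tested, beyond the arrays left out. Scaling moved the median of all genes over 6 arrays by less than 0.1, but quantile normalisation moved that of the genes above the median level in number 3 from 0.12 to −0.064.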
